A study of Danio rerio with 6 samples.

Results

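Protocadherins are the largest branch of the cadherin family of calcium-dependent adhesion proteins of the cell surface. Each has a row of extracellular cadherin repeats, 1 membrane-spanning stretch and a cytoplasmic tail that differs from that of the classical cadherins. In many of them the repeats bind the same protein on a neighbouring cell. In vertebrates the clustered protocadherins lie in tandem arrays in which many variable exons, each with its own promoter, are spliced to a few constant exons shared by the whole alpha or gamma array. Neurons of mammals each use a small, varied set of them, and CpG methylation of the variable promoters is part of how that choice is kept. The non-clustered protocadherins are separate genes with patterned expression in the embryo, such as pcdh8 (paraxial protocadherin) in the presomitic mesoderm and pcdh19 in the developing nervous system of zebrafish. The Fat and Dachsous cadherins, giant proteins of planar polarity and growth control, are also called protocadherins in many protein databases.

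The protocadherin genes were taken as every Ensembl gene ID of the deposited RNA tables whose best protein match, as listed by the authors, contained the word protocadherin. This gave 102 of 24832 IDs. They were read in whole zebrafish embryos at the 10-somite stage, in 1 library of dnmt1 morphants and 1 library of controls. A morphant embryo has received a morpholino, a synthetic antisense oligomer against a chosen messenger. Here the target was dnmt1, the enzyme that copies CpG methylation onto newly made DNA strands. The strain, the morpholino dose, the number of embryos pooled and whether the controls were injected are not stated in the labels. The study also holds 4 MeDIP libraries from 80% epiboly, and methylation at these genes was not analysed here.

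The morphant library held 10.05 M unique reads in genes and the control library 9.90 M (M, megareads). With 1 library per group no difference has a replicate check, no p-value can be had, and every interval below is a 95% exact interval that covers counting error only. The messenger of dnmt1 had 3194 reads in the morphant and 2423 in the control library, which does not check a knockdown that may act on translation. Of 20 defining genes of somite-stage tissues, 19 were found and all 19 had reads in both libraries. They included tbxta of the notochord, myod1 of muscle, egr2b of the hindbrain and gata1a of blood, and the endoderm gene sox32 was not found by symbol.

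By the wording of the match, 22 of the 102 IDs were clustered alpha, 35 clustered gamma and 7 clustered beta protocadherins. A further 22 were non-clustered protocadherins, and 16 were Fat or Dachsous cadherins. In 1 case, a match to pufferfish protocadherin 1A3, the alpha class was read from the letter in the name. All 7 beta IDs matched proteins called protocadherin beta-15-like or beta-16-like, so beta is here a name by similarity only. Calcium ion binding was listed in the authors' gene ontology annotation for 77 members, and homophilic cell adhesion for 74. The same terms were listed for 701 and 145 of all 24832 IDs. Symbols were found for 55 members, and in the RefSeq annotation of zebrafish assembly GRCz12tu 15 of the 19 genes matched to clustered members lay next to another matched gene. Among the other matched genes 5 of 20 did so, pcdh10a beside pcdh18a being 1 such pair.

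Most protocadherin IDs had almost no reads at this stage. Summed over both libraries, 28 of the 102 had no read, 41 had 1 to 10 reads, 11 had 11 to 49 and 22 had at least 50, the minimum used for ratios. Of all 24832 IDs, 13575 had at least 50 reads and 23495 had at least 1. The classes differed in this: 14 of 22 non-clustered IDs reached 50 reads, against 5 of 16 Fat and Dachsous IDs and 3 of 64 clustered IDs. The share of the non-clustered IDs was thus near that of all IDs, and the share of the clustered IDs was far below it. For an ID with no read in a library, the limit that a count of 0 allows (3 reads) was 0.298 CPM (counts per megaread) in the morphant and 0.303 CPM in the control library. Such IDs are below detection at this depth and not shown to be silent.

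**Figure D1:**
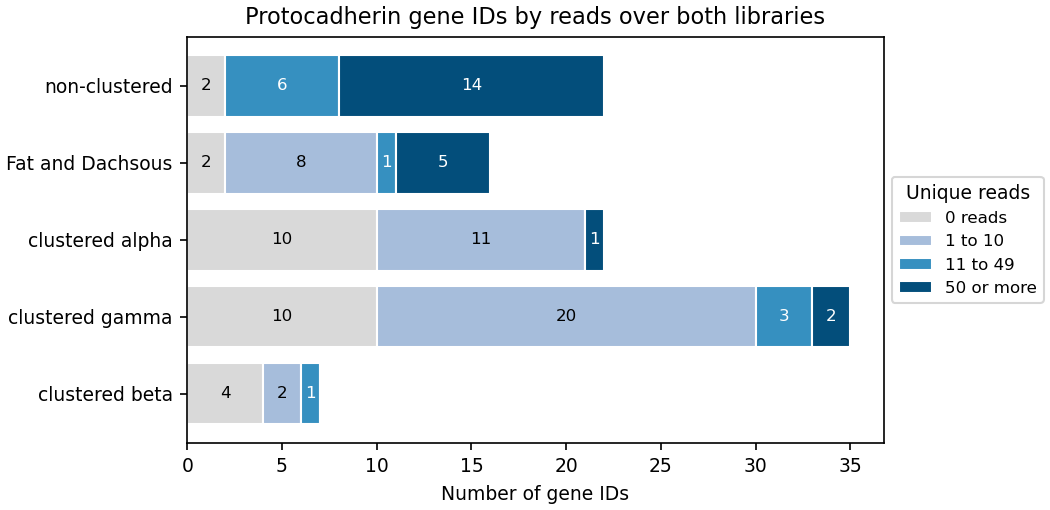
Number of protocadherin gene IDs (horizontal axis) in each class (rows), split by unique reads summed over the morphant and control libraries. Of the non-clustered IDs 14 of 22 had at least 50 reads, against 1 of 22 alpha, 2 of 35 gamma and 0 of 7 beta IDs.

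The non-clustered protocadherins held most of the reads of the family. Their 22 IDs had 7736 reads in the morphant and 8257 in the control library, out of 10699 and 11053 for all 102 members in the same order of libraries. As a share of all reads this was 769 CPM in the morphant and 834 CPM in the control library, a ratio of 0.922 (interval 0.894 to 0.952). Without pcdh19 the class had a log2 ratio of -0.0493, against -0.12 with it.

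The most deeply read member was pcdh19 (ENSDARG00000034344), a delta-type protocadherin that in zebrafish pairs with N-cadherin in the forming neural tube. It had 2362 reads in the morphant and 2782 in the control library. Per length this was a level of 44.4 RPKM (reads per kilobase of gene and per megaread of the library) in the morphant and 53.1 RPKM in the control library. Its ratio of CPM was 0.836 (0.791 to 0.883). In the morphant library 1776 of 24832 IDs had a higher RPKM, and in the control library 1457. Its partner N-cadherin, cdh2, had 8697 reads in the morphant and 10056 in the control library. The ratio was 0.851 (0.827 to 0.876), and cdh2 is named here after its value was seen. Neural progenitor genes lay low in the morphant library: 10 of the 11 listed genes with at least 50 reads were below a log2 ratio of 0. Their median was -0.22, and this list, like those below, was chosen with earlier results of these data known. Of all 13575 genes with as many reads, 45.7% were below 0, with a median of 0.03. The reads of all 13 listed genes that were found summed to 1075 CPM in the morphant and 1290 CPM in the control library, and none was at 0. Early neuron genes did not lie low in the same way, with 5 of 10 below 0 and a median of -0.0035. The part of neural progenitors in the pcdh19 value was not tested. In whole embryos, fewer cells of a type and less RNA per cell cannot be told apart.

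The mesodermal member pcdh8 (ENSDARG00000006467), which acts in the cell movements of paraxial mesoderm, had 1556 reads in the morphant and 1618 in the control library. Its level was 29.1 RPKM in the morphant and 30.8 RPKM in the control library, and the interval of its ratio, 0.947, included 1 (0.883 to 1.02). Among paraxial mesoderm genes 13 of 16 with enough reads lay below a log2 ratio of 0, against 45.7% of all genes. Their median was -0.21, and the log2 ratio of pcdh8 was -0.08. That list summed over its 17 found genes to 1256 CPM in the morphant and 1467 CPM in the control library, and no gene was at 0. Its clock gene her7 had a ratio of 0.610 (0.517 to 0.718), and her1 had 0.732 (0.650 to 0.823). The presomitic regulator msgn1 had 0.716 (0.658 to 0.779). These 3 genes are named for having the largest differences of the list. A second ID matched to a protocadherin-8-like protein (ENSDARG00000042586) had 20 reads in the morphant and 15 in the control library, too few for a ratio here.

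Of the remaining well-read non-clustered genes, pcdh1b stood near pcdh19 in level, with 41.4 RPKM in the morphant and 42.8 RPKM in the control library. It had 1366 and 1389 reads in the morphant and control libraries, a ratio of 0.968 (0.898 to 1.04). Below pcdh8 came pcdh10b, of the delta type and known from developing brain circuits, with 17.4 RPKM in the morphant and 17.0 RPKM in the control library. Its reads numbered 678 in the morphant and 653 in the control library, a ratio of 1.02 (0.917 to 1.14). The endothelial protocadherin of mammals, pcdh12, had 318 reads in the morphant and 316 in the control library, a ratio of 0.991 (0.845 to 1.16). These 3 genes thus had intervals that included 1.

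Among the 14 non-clustered members with enough reads the interval of the ratio lay below 1 for pcdh19 and pcdh18b and above 1 for 1 pcdh20-like ID. Over all 22 members it lay above 1 for 2 and below 1 for 3, against 19.5% above and 15.8% below among all 13575 genes with as many reads, so these counts are near the background. The gene pcdh18b (ENSDARG00000052494) had 322 reads in the morphant and 419 in the control library, a ratio of 0.757 (0.652 to 0.877). Its copy pcdh18a had 322 reads in the morphant and 354 in the control library, with a ratio of 0.896 (0.768 to 1.04). The pcdh20-like ID (ENSDARG00000057773) went the other way, with 140 reads in the morphant and 96 in the control library, a ratio of 1.44 (1.1 to 1.88). These 3 ratios lay within 2-fold, and the intervals are not adjusted for the number of genes. Among pcdh19, pcdh18b and the pcdh20-like ID, the deepest, pcdh19, had the ratio nearest to 1. Intervals narrow with depth, so picking genes by interval favours this order, and nothing is drawn from it.

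The other non-clustered members with enough reads were at low levels. The brain protocadherin gene pcdh17 had 55 reads in the morphant and 73 in the control library, a ratio of 0.742 (0.513 to 1.07). An ID named PCDH7 (ENSDARG00000060610) had 63 reads in the morphant and 53 in the control library, a ratio of 1.17 (0.799 to 1.72). The gene pcdh10a had 235 reads in the morphant and 195 in the control library (1.19, 0.977 to 1.44), and pcdh1a had 150 reads in each library (0.985, 0.780 to 1.24). The hair cell tip-link gene pcdh15a had 69 reads in the morphant and 59 in the control library, and its copy pcdh15b had 24 and 30 in the same order, passing the minimum through its control reads. All of these intervals included 1. Too few reads for a ratio were found for a protocadherin-11 ID (25 in the morphant, 24 in the control), pcdh7a (9 and 13 in that order), pcdh9 (5 and 10), an ID named PCDH20 (9 and 5) and a protocadherin-10-like ID (8 and 3). The IDs matched to protocadherin-10 (ENSDARG00000043961) and to protocadherin-21, a photoreceptor cadherin, had no read in either library.

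**Figure D2:**
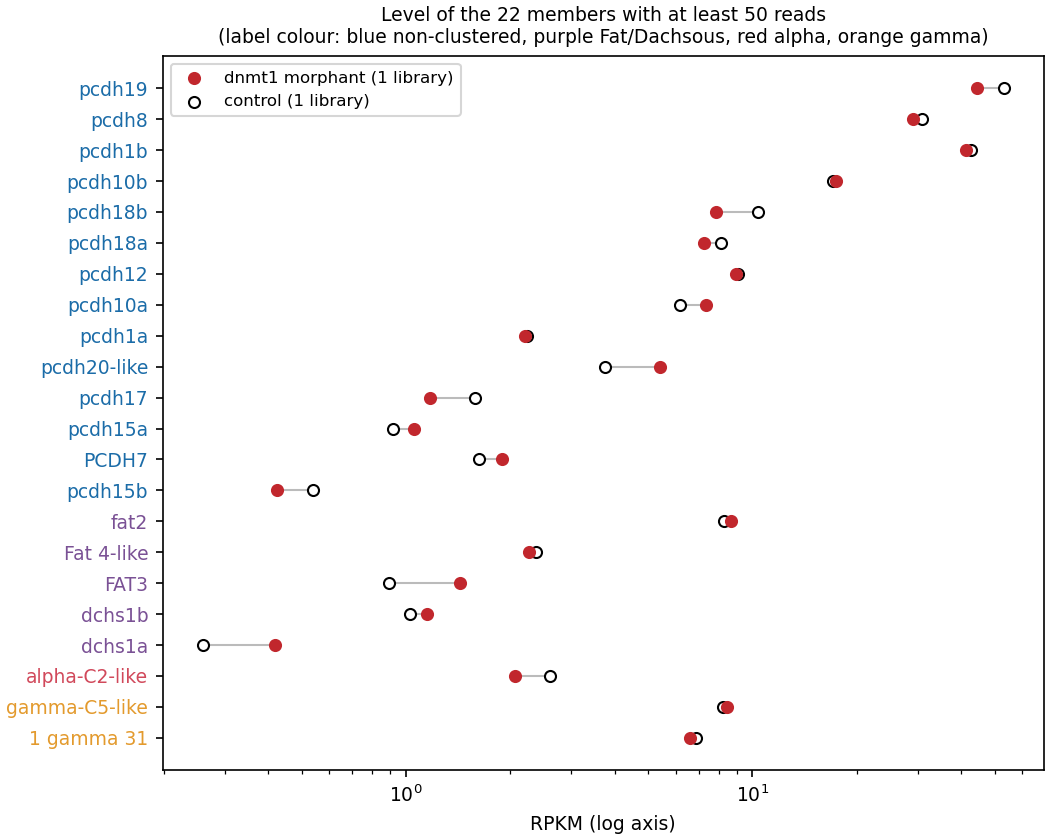
Level in RPKM (log axis) of the 22 protocadherin members with at least 50 reads, 1 filled point for the morphant and 1 open point for the control library. The highest are pcdh19, at 44.4 RPKM in the morphant and 53.1 RPKM in the control library, pcdh1b and pcdh8, and most other members lie below 10 RPKM.

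Most gene copies from the fish genome duplication were read at unequal levels per length, in the same order in both libraries. The level of pcdh1b was 18.8 times that of pcdh1a in the morphant and 19.1 times in the control library, per length. Reads were 1366 for b and 150 for a in the morphant library, and 1389 and 150 in the control library. Listed lengths were 3282 bases for b and 6771 for a, so part of this ratio came from length. For pcdh10b over pcdh10a the ratio of levels was 2.38 in the morphant and 2.76 in the control library, and for dchs1b over dchs1a it was 2.75 and 3.95. The copies of pcdh18 were close, with b over a at 1.08 in the morphant and 1.28 in the control library. Both had 322 reads in the morphant library, so their difference there came from listed length alone (4081 bases for b, 4420 for a). For pcdh15 the a copy was the higher: b over a was 0.401 in the morphant and 0.586 in the control library. These ratios of levels carry no interval, and the reads of the pcdh15 copies and of dchs1a were few. The tables count unique reads, and how that bears on copies that share sequence was not tested.

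The 16 Fat and Dachsous IDs had 1969 reads in the morphant and 1778 in the control library, a ratio of 1.09 (1.02 to 1.16). Most came from fat2, a giant cadherin of epithelia, with 1410 reads in the morphant and 1327 in the control library, a level of 8.68 RPKM in the morphant and 8.30 RPKM in the control library. Its ratio was 1.05 (0.970 to 1.13). An ID named FAT3 (ENSDARG00000033840) had 197 reads in the morphant and 121 in the control library, a ratio of 1.60 (1.27 to 2.03). Its log2 ratio of 0.67 was the highest of the 22 members with enough reads. The Dachsous gene dchs1a, a ligand of Fat cadherins, had 41 reads in the morphant and 25 in the control library. Its ratio was 1.61 (0.959 to 2.77), with an interval that included 1. Its copy dchs1b had 114 and 100 reads in the morphant and control libraries, a ratio of 1.12 (0.850 to 1.48). A Fat 4-like ID (ENSDARG00000045665) had 185 and 191 reads in the same order, a ratio of 0.954 (0.775 to 1.17). Of the 5 members of the class with enough reads, FAT3 alone had an interval that left out 1. Without fat2 the class had a log2 ratio of 0.29, against 0.12 with it. The sum without FAT3 was not computed, so the class ratio is not read as a rise shared by its members. Another 6 IDs matched to Fat 3 were fragments with a listed length of 303 to 1542 bases, with 8 reads in the morphant and 3 in the control library in all.

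The 64 clustered protocadherin IDs had 994 reads in the morphant and 1018 in the control library, or 98.9 CPM in the morphant and 103 CPM in the control library. The ratio was 0.961 (0.880 to 1.05). The alpha IDs had 160 reads in the morphant and 195 in the control library, a ratio of 0.808 (0.651 to 1.0). The gamma IDs had 820 reads in the morphant and 810 in the control library (0.997, 0.903 to 1.1), and the beta IDs had 14 and 13 in that order. The intervals of all 3 classes included 1.

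Of all clustered reads, 90.1% lay in 3 IDs. The gamma-C5-like ID ENSDARG00000058941 had 456 reads in the morphant and 440 in the control library, a ratio of 1.02 (0.893 to 1.17). The ID ENSDARG00000075978, matched to a member of the cluster 1 gamma array, had 293 reads in the morphant and 300 in the control library, a ratio of 0.962 (0.816 to 1.13). The alpha-C2-like ID ENSDARG00000089562 had 144 reads in the morphant and 179 in the control library, a ratio of 0.792 (0.632 to 0.992), the only interval of the 3 that left out 1. The other 61 clustered IDs together had 101 reads in the morphant and 99 in the control library, a ratio of 1.0 (0.754 to 1.34).

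The 3 deep IDs had long listed lengths, though length alone did not set them apart. Of the 64 clustered IDs, 56 had a listed length between 2200 and 2500 bases, near that of a single large coding exon. In 61 the length was a multiple of 3, as in 14 of 16 Fat and Dachsous and 12 of 22 non-clustered IDs. The shares over all IDs are not given here. The 3 deep IDs were listed at 5387, 4404 and 6922 bases, in the order above. Among the 5 clustered IDs over 4000 bases were also pcdh1a3, at 5392 bases, and pcdh1a4, at 5406 bases, with 2 reads each over both libraries. Among the 56 short IDs, 33 had any read, and none had more than 11 in the morphant or 12 in the control library.

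The authors also list the share of each gene's length that is covered by reads. Genes with 1 read had a median covered length of 49 bases, taken here as the read length. Even coverage means here the share expected if reads fell at random, with the same odds at every base. For the alpha-C2-like ID it was 63.9% in the morphant and 71.8% in the control library. The listed share was 8.15% in the morphant and 8.93% in the control library, that is 564 and 618 of 6922 bases in the same order. The ratio of listed to even coverage was 0.128 in the morphant and 0.124 in the control library. Of all genes with at least 50 reads in the library, 7 of 11773 in the morphant and 8 of 11509 in the control had a lower ratio. The median ratio over these genes was 0.909 in the morphant and 0.912 in the control library.

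Both deep gamma IDs were covered in part as well. The cluster 1 gamma ID (ENSDARG00000075978) had reads on 32.8% of its length in the morphant and 36.1% in the control library. Its even coverage was 96.2% and 96.4% in the same order. The gamma-C5-like ID (ENSDARG00000058941) had reads on 51.4% in the morphant and 55.8% in the control library, against an even coverage of 98.4% and 98.2%. The 19 non-clustered, Fat and Dachsous members with at least 50 reads over both libraries had ratios of listed to even coverage from 0.709 to 0.986 in the morphant and from 0.646 to 1.02 in the control library. The listed RPKM of the 3 clustered IDs is thus an average over a length of which reads touched a part. The alpha-C2-like ID had 255 reads per covered kilobase in the morphant and 290 in the control library. In the same order the cluster 1 gamma ID had 203 and 189, and the gamma-C5-like ID had 165 and 146. For the deepest non-clustered genes it was 453 and 532 (pcdh19), 308 and 322 (pcdh8), 440 and 443 (pcdh1b) and 178 and 173 (pcdh10b). The other non-clustered genes had lower values. This measure divides by the bases that reads touched, so it does not rank genes by level. In RPKM the alpha-C2-like ID had 2.07 in the morphant and 2.61 in the control library. For pcdh10b these were 17.4 and 17.0 in the same order. Where in the gene the covered bases lie is not listed, and whether they are the exons shared by an array was not tested.

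**Figure D3:**
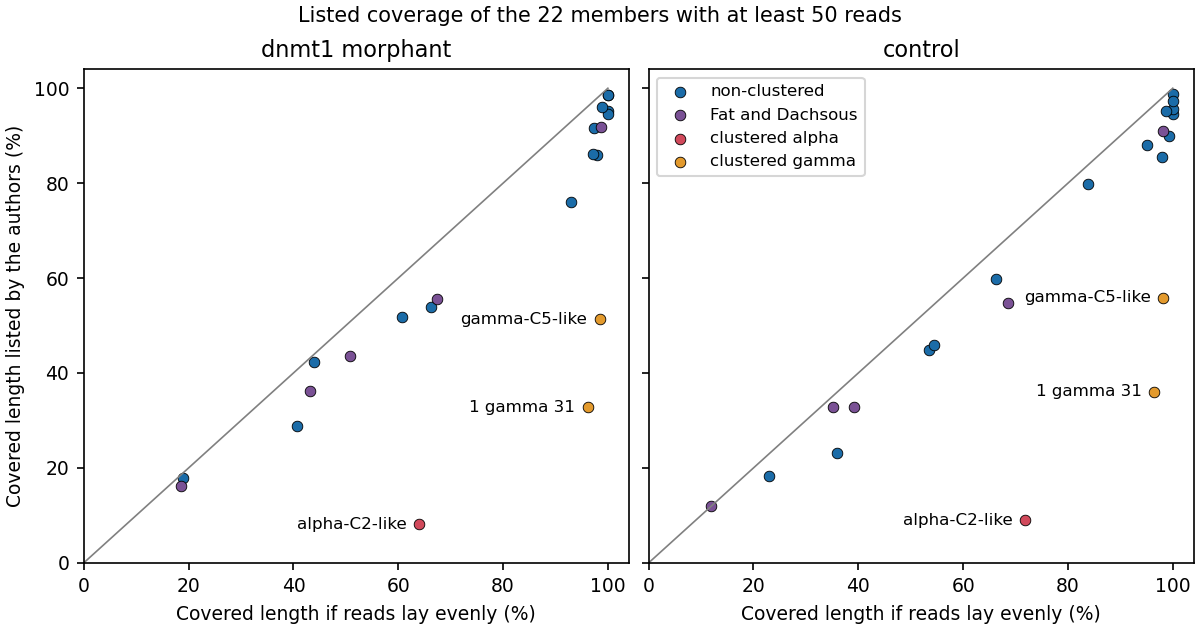
Share of the gene length covered by reads as listed by the authors (vertical axis, percent) against even coverage (horizontal axis, percent). Even coverage is the share expected if the same number of 49-base reads fell at random, with the same odds at every base. Shown are the 22 members with at least 50 reads, morphant library left and control library right. The alpha-C2-like ID lies at 8.15% in the morphant and 8.93% in the control library, far under the diagonal, and both gamma IDs also lie below all other members with a like expected share.

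The choice among variable exons could not be read from these tables. Of the 61 clustered IDs other than the 3 deep ones, 24 had no read, 21 had reads in both libraries, 10 in the morphant library alone and 6 in the control library alone. The like shares over all IDs are not given here, so 10 against 6 is not read as a difference between the libraries. The most reads seen with none in the other library were 5 in the morphant, for pcdhb (ENSDARG00000077023), and 3 in the control, for pcdh2ab1 (ENSDARG00000071904). Such counts are at or near the limit that a count of 0 allows. Only unique reads were counted, and 36 of the 64 clustered IDs shared their best-match wording with another member, up to 4 IDs for 1 wording. How alike their sequences are, and how many reads that removed, was not tested. By the wording, 19 clustered IDs belonged to cluster 1, with 340 reads in the morphant and 359 in the control library, and 21 to cluster 2, with 32 and 23 in the same order. The wording named no cluster for 24.

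None of the 22 members with at least 50 reads was 2-fold higher or 2-fold lower in the morphant library (the plot of all genes). Of all 13575 genes with as many reads, 1.62% passed 2-fold upward and 0.545% downward. At these shares fewer than 1 of 22 genes would be called, so the absence of calls is near the background and not a result about the family. At 1.5-fold, 2 members were higher, FAT3 and dchs1a, and none was lower, with 6.11% of all genes higher and 3.24% lower. With a minimum of 1 read, 74 members entered, of which 6 passed 2-fold upward and 4 downward, against 4.58% and 3.93% of all genes with a read. The log2 ratios of the 22 members ran from -0.42 (pcdh17) to 0.67 (FAT3), with 10 above and 12 below 0. Their median was -0.02, against 0.03 over all 13575 genes. The medians by class were -0.03 over 14 non-clustered, 0.16 over 5 Fat and Dachsous and -0.06 over 3 clustered members. Since members with few reads were left out, these counts say nothing of the other 80 IDs, which together had 199 reads in the morphant and 183 in the control library.

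**Figure D4:**
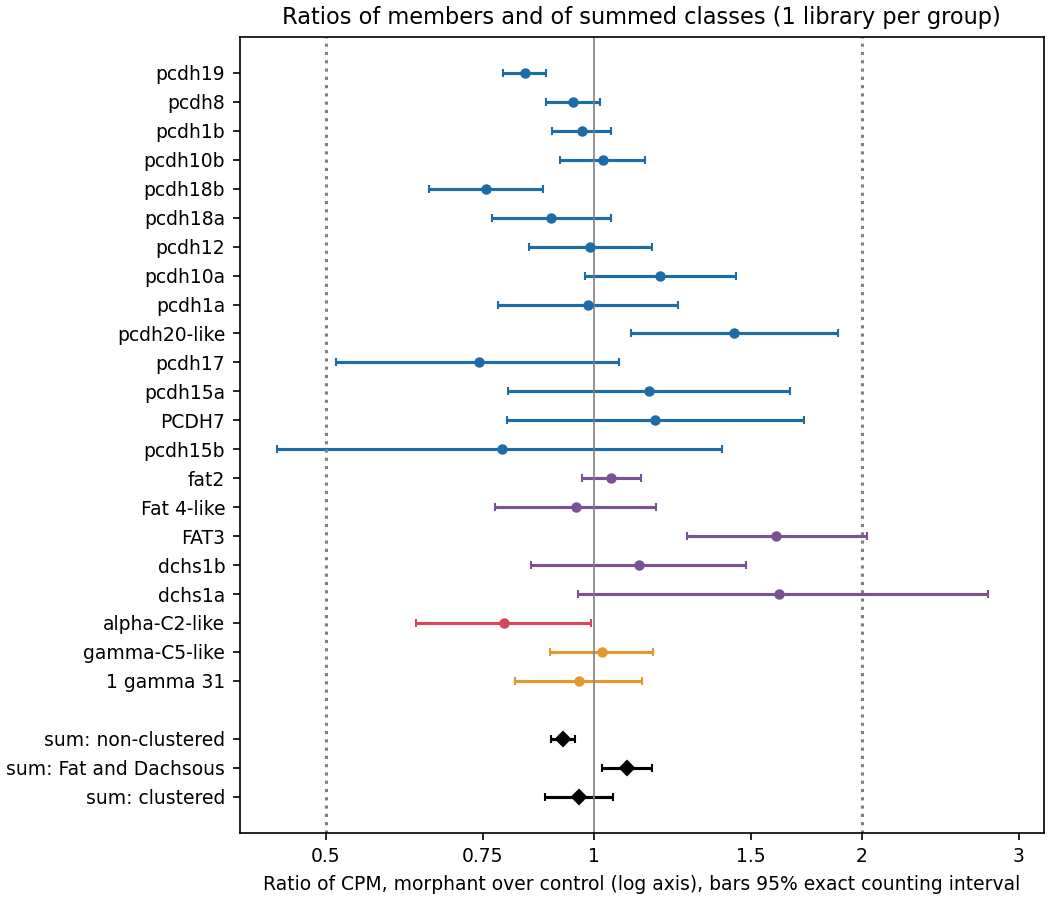
Ratio of CPM, morphant over control (log axis), for the 22 members with at least 50 reads and for the summed classes (diamonds), with 95% exact counting intervals. Dotted lines mark 2-fold. No point lies beyond them, the highest members are dchs1a at 1.61 and FAT3 at 1.60, and the non-clustered sum lies at 0.922.

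**Figure D5:**
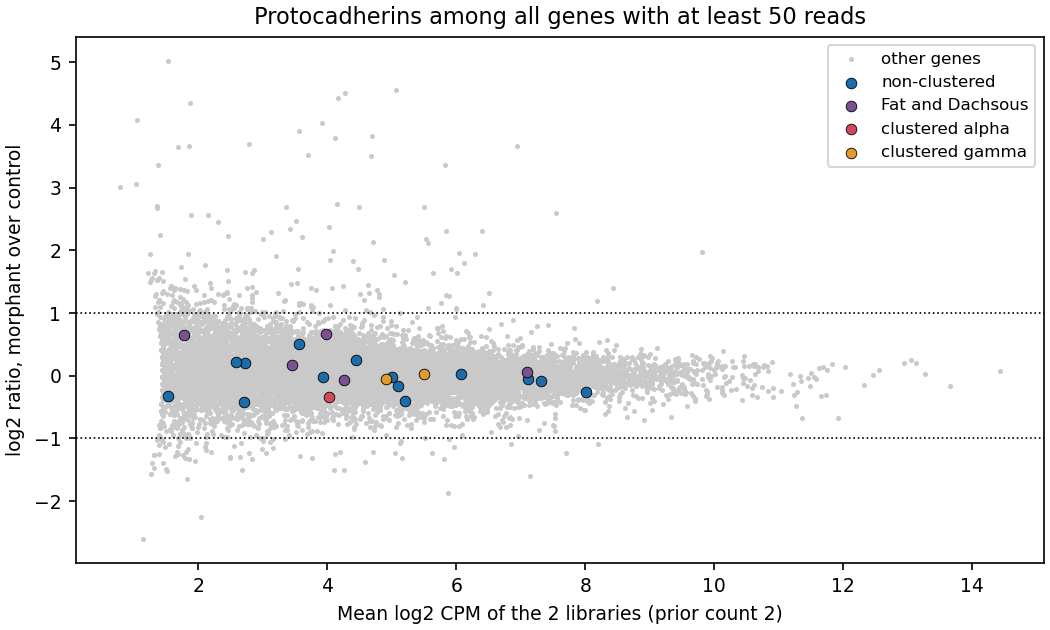
Log2 ratio, morphant over control, against mean log2 CPM of the 2 libraries for all 13575 genes with at least 50 reads, with the 22 protocadherins in colour. All members lie between the dotted 2-fold lines, from -0.42 to 0.67.

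Relatives and partners of the protocadherins were described from lists chosen with earlier results of these data known. Counts and medians are given, with the 3 genes of largest absolute log2 ratio in each list. Lists and genes chosen in this way are not an independent check. Of the classical and other cadherins, 8 of the 15 found had enough reads, none was past 2-fold, and the median log2 ratio was -0.13. The kidney cadherin cdh17 had a ratio of 1.91 (1.52 to 2.41), and E-cadherin, cdh1, had 0.681 (0.644 to 0.720). In the list of Flamingo, Fat and Dachsous cadherins the Flamingo genes celsr1b and celsr2, which act in planar polarity, had ratios of 0.75 (0.677 to 0.830) and 0.759 (0.690 to 0.834). The third named gene of that list was dchs1a, given above. Only 8 of its 14 genes were found by symbol, and celsr1a, fat1a, fat1b, fat3a, fat3b and fat4 were not. The FAT3 ID, with a log2 ratio of 0.67, and the Fat 4-like ID are thus outside this list. Of its 5 genes with enough reads 3 are members, and the median was 0.06.

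The catenins, which bind classical cadherins but not protocadherins, had a median of 0.01 over 6 genes and none past 2-fold. Among them ctnnd2b had a ratio of 0.759 (0.684 to 0.841), ctnnb2 had 1.12 (1.06 to 1.18) and jupa had 1.08 (1.03 to 1.13). The WAVE complex links the tails of several delta protocadherins to actin, and kinases of the Pyk2 type bind the constant tail of clustered ones in mammals. Over 14 genes of this list the median was -0.01, again with none past 2-fold. The Pyk2-type kinase gene ptk2bb had 302 reads in the morphant and 193 in the control library, a ratio of 1.54 (1.28 to 1.86). The GTPase gene rhoab had a ratio of 1.92 (1.07 to 3.53), from 37 reads in the morphant and 19 in the control library, and passed the read minimum through its morphant reads. The ratio of wasf1 was 1.29 (0.797 to 2.11).

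In mammals the clustered promoters are held by CTCF and cohesin and marked by DNA methyltransferases. In the list of these regulators 16 of 19 genes with enough reads lay below 0, against 45.7% of all genes, with a median of -0.12 and none past 2-fold. The de novo methyltransferase gene dnmt3bb.2 had a ratio of 0.785 (0.748 to 0.825), dnmt3ab had 1.32 (0.929 to 1.88), and dnmt1 itself had 1.30 (1.23 to 1.37). Early neuron genes, the cells in which clustered protocadherins are known, had a median of -0.0035 over 10 genes, with 5 above and 5 below 0. Their 15 found genes summed to 436 CPM in the morphant and 428 CPM in the control library, none at 0. The neuronal stathmin gene stmn1b, with 46 reads in the morphant and 19 in the control library, had a ratio of 2.38 (1.37 to 4.31). It passed the read minimum through its morphant reads. The pan-neuronal RNA-binding gene elavl3 had a ratio of 1.18 (1.1 to 1.26), and the synaptophysin gene sypb, which passed the minimum through its control reads, had 0.686 (0.385 to 1.20). Of neural progenitor genes, sox2 had a ratio of 0.675 (0.611 to 0.745), pax6b had 0.680 (0.587 to 0.786) and sox19a had 0.75 (0.714 to 0.788).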

How the data were processed

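Per the labels, RNA came from whole embryos at the 10-somite stage (1 dnmt1 morphant, 1 control library). Per the submitters' processing notes, the tools included HTSeq 0.6.1 and TopHat2, whose roles are not stated; no source used here gives the genome build. Per the file headers, the tables hold counts of unique reads per gene, not normalized. They also hold RPKM deposited by the authors, which equal reads over listed length and header total, and the fraction of each gene length covered, likewise deposited by the authors. A dash was read as 0. Rows of 1 ID were added up (376 rows), leaving 24832 IDs. The MeDIP peak lists were not used, since no gene positions on their build were at hand.

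Members were classed by the wording of the authors' best match. Symbols came from an Ensembl table, or from the RefSeq gene of the matched protein, by accession without its version. Ratios are of CPM scaled by total reads. The log2 ratios use edgeR 4.0.16 (R 4.3.3) with a prior count of 2, where a gene had 50 or more reads in both libraries combined, and a gene was called past 2-fold of that value. Intervals are 95% exact (Clopper-Pearson) intervals of the morphant share of reads. Reads are not independent molecules, so they cover counting error only. Even coverage was computed as 1 minus the exponential of minus reads times 49 bases over length. All members with enough reads are named, and of each list the 3 with the largest absolute log2 ratio. Of the 8 non-clustered members with fewer reads all are named, and clustered IDs named for reads in 1 library, and tbxta, myod1, egr2b, gata1a and cdh2, were chosen after their values were seen. The members and lists were chosen with earlier results of these data known. The computation of ratios was tested on simulated counts with counting error only, which says nothing of the spread between embryos or libraries. Alternatives were other read minimums, TMM scaling, a prior count of 0.5, log2(RPKM + 1), other fold rules, the row with most reads per ID, and classes without their deepest members. Python 3.11.15, pandas 2.3.3, numpy 2.4.6, SciPy 1.17.1 and matplotlib 3.10.9 were used.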

Additional observations from a re-analysis of the deposited data

How the results depend on the processing

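With at least 1 read over both libraries, 74 members entered, and 6 passed 2-fold upward and 4 downward, none of them with 50 reads. With the 1.5-fold rule 2 members were higher in place of 0. Without its deepest member the summed log2 ratio was -0.0493 for non-clustered protocadherins (without pcdh19; -0.12 with it) and 0.29 for Fat and Dachsous cadherins. The other alternatives left the counts of calls at 0, and the members' median between -0.06 and -0.01. The clustered sum moved within its counting interval under every alternative run, including leaving out its 3 deepest IDs, which was chosen after seeing the data (0.01, from -0.06). All 88 values of the 22 single genes under 4 settings stayed within their counting intervals. For the row with most reads this was fixed in advance, since each of these genes had 1 row. TMM scaling shifted all genes by -0.04, so neither setting is a check of single ratios. No paired analysis was possible because each RNA group has 1 library. The 80 IDs with fewer than 50 reads had too few for a ratio here, and no difference was detectable for them. Whether depth or the counting of unique reads alone kept them low was not tested.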
